A study of Mus musculus with 26 samples.

Results

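The comparison described here sets mouse embryonic stem cells with Dux knocked down and treated with the splicing inhibitor pladienolide B (Dux KD PlaB, 2 libraries) against cells of the same line given the vehicle DMSO (2 libraries). These 4 of the 26 bulk poly(A) RNA-seq libraries in the study were picked by a rule on the names of their columns in the count table. The rule itself uses no measured values, but the choice and the gene lists were made with earlier results of these data known. The cells of all groups are R1 mESCs, an established mouse line grown on gelatin with LIF. By the labels, Dux KD PlaB cells carry an shRNA against Dux and received 4 nM pladienolide B for 4 days, and DMSO cells are wild type. A further 3 groups of 2 libraries each are used as reference points: untreated wild-type cells (ESC), wild-type cells given the same dose of the drug (PlaB), and Dux knockdown cells with a Zscan4 transgene (Dux KD Zscan4 OE), whose treatment label reads "no". Another group, SE KO PlaB, carries a knockout named only as SE KO in the labels and received the same dose of the drug for the same time. Cells overexpressing Dux, given doxycycline at 4 µg/mL and no pladienolide B by their labels, serve as a reference for pseudogene counts only. No library of Dux knockdown cells given DMSO was analysed here, so that the knockdown and the drug cannot be told apart in the comparison with DMSO. Which shRNA was used is not given in the labels, nor whether the 2 libraries of a group came from separate cultures. The p-values therefore measure only the spread between libraries of a group, estimated jointly over all 13 groups of the study.

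Pladienolide B binds SF3B1, a subunit of the SF3B complex that lets the U2 snRNP recognise the branch point of an intron, and it thereby slows splicing. Dux is a double-homeobox transcription factor of the 2-cell embryo that activates the Zscan4, Usp17l, Obox and Tdpoz families and the MERVL retrotransposon, and mESCs that switch it on are called 2-cell-like. Splicing inhibitors are also known to stabilise p53, the transcription factor that induces Mdm2, Cdkn1a and other stress genes. The question addressed is how much of the response to the drug is left, by gene and by pathway, when Dux is knocked down.

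Dux KD PlaB cells differed from DMSO cells in a limited set of genes. Of 20953 genes tested, 1577 were called higher (7.53%) and 867 lower (4.14%), where a call needs an adjusted p under 0.05 in edgeR's quasi-likelihood test and a log2 fold change of at least 1 in size. In wild-type cells the same drug gave 6759 genes called higher (32.3%) and 5572 lower (26.6%) against the same DMSO libraries. The direct test between the drug-treated groups, in which the DMSO libraries take no part, called 5468 genes higher (26.1%) and 6041 lower (28.8%) in Dux KD PlaB than in PlaB. On log2 CPM over all tested genes, the mean of Dux KD PlaB lay 112 units (Euclidean distance) from DMSO, 111 from ESC, 113 from Dux KD Zscan4 OE and 286 from PlaB.

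The controls themselves differed. DMSO against ESC gave 1743 genes called higher (8.32%) and 1658 lower (7.91%), more than Dux KD PlaB against either of them. Against ESC, Dux KD PlaB had 1574 genes called higher (7.51%) and 1013 lower (4.83%). Of the 1577 genes called higher than DMSO, 530 (33.6%) were also called higher than ESC, 1003 were not called against ESC and 44 were called lower. Of the 867 called lower than DMSO, 144 (16.6%) were also called lower than ESC, 666 were not called and 57 were called higher. A call against both controls was thus reached by 2.53% of all tested genes in the upward direction and by 0.687% in the downward direction. Both comparisons use the same Dux KD PlaB libraries, and the counts of each gene list against ESC are given beside those against DMSO.

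The 4 libraries of the comparison held 17081870 to 19453495 counts. Replicates differed by more than sampling noise in every group, with a chi-square per degree of freedom of 1.75 in Dux KD PlaB, 2.29 in DMSO, 1.81 in ESC and 6.19 in PlaB, and with the widest spread in Dux KD Zscan4 OE (26.1) and SE KO PlaB (30.2). The labelled cell type matched its markers. The summed level of 8 embryonic stem cell markers was 5298 to 5310 CPM in Dux KD PlaB, 6616 to 6692 in DMSO and 5166 to 5180 in ESC, and none was at the floor of 3 counts. Of 7 markers of 2-cell-like cells, Zfp352, Tcstv1 and Tcstv3 were at the floor in Dux KD PlaB and in DMSO, and the summed level was 6.52 to 6.54 CPM and 5.04 to 6.92 CPM respectively, against 7302 to 7557 CPM in PlaB. Fibroblast feeder markers summed to 27.5 to 30.4 CPM in Dux KD PlaB and 35.8 to 37.1 CPM in DMSO, with Col3a1 and Postn at the floor in both.

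The knockdown target, annotated as Duxf3 (GRCm38 chr10:58229979-58232675, minus strand, 1 merged exon), could not be judged against DMSO, because DMSO cells have next to none of it. It had 1 and 0 counts in the Dux KD PlaB libraries and 1 and 0 counts in the DMSO libraries, so no fold is given. In PlaB it had 191 and 181 counts (9.25 and 8.21 CPM), and Dux KD PlaB lay at least 49.0-fold lower, computed against 3 counts per library (edgeR adjusted p = 7.1e-11). The counts thus fit the knockdown label only in the sense that the rise seen in PlaB is missing. Dux lies in a tandem array of near-identical copies, and how the counting split their reads is not stated.

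The 2-cell-stage genes that follow Dux stayed close to the level of the DMSO cells. Of 44 tested genes of this list, 39 were called higher in PlaB than in DMSO (32.3% of all genes were) and 40 were called lower in Dux KD PlaB than in PlaB (28.8%). Against DMSO, 6 were called higher and 1 lower in Dux KD PlaB (7.53% and 4.14% of all genes). The median log2 fold change was 0.08 over the list and 0.01 over all genes. The 6 called higher were Usp17la, Usp17lb, Usp17lc, Gm5662, Gm2016 and Gm11545, and the 1 called lower was Dnah7c. Each of these 7 calls was lost in at least 1 of the fits that left out a Dux KD PlaB or DMSO library. Gm5662, the most abundant of them, had 4.95 and 3.41 CPM in the Dux KD PlaB libraries, 2.04 and 1.48 in DMSO, 11.8 and 10.5 in ESC and 1270.1 and 1308 in PlaB. It was thus above DMSO by a log2 fold change of 1.25 ± 0.28 (SE, n = 2 and 2, edgeR adjusted p = 8.2e-04) and below ESC. Zscan4d, a 2-cell marker of the Zscan4 family, had 2.00 and 2.63 CPM in Dux KD PlaB, 2.27 and 1.37 in DMSO, 11.95 and 10.1 in ESC and 4221 and 4408 in PlaB. The Dux KD PlaB and DMSO libraries overlapped for Zscan4d. Against ESC, 17 of the 44 genes were called lower in Dux KD PlaB (4.83% of all genes were) and none higher. DMSO was likewise called lower than ESC in 19 (7.91% of all genes). In Dux KD Zscan4 OE, Zscan4d had 0.973 and 1.504 CPM, below ESC. Zscan4f was the only one of the 6 tested Zscan4 genes called higher in Dux KD Zscan4 OE than in ESC, at 16.0 and 13.2 against 3.11 and 2.13 CPM, and it had 1.24 and 0.657 CPM in Dux KD PlaB and 0.680 and 0.658 in DMSO. The Zscan4 genes are near-identical copies, so how reads were split between them is uncertain.

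Targets of p53 were called higher more often than genes at large. Of 32 tested members, 12 were called higher than DMSO (37.5%, against 7.53% of all genes) and the other 20 were not called, with a median log2 fold change of 0.77. Against ESC, 9 were called higher and 1 lower (7.51% and 4.83% of all genes). Against both controls 7 were called higher (2.53% of all genes), namely Mdm2, Trp53inp1, Btg2, Plk2, Trp73, Polk and Fas. In Dux KD Zscan4 OE against ESC, which has the knockdown without the drug by its labels, 1 of the 32 was called lower (2.55% of all genes were, and 5.56% higher) and the others were not called. SE KO PlaB against ESC had 16 called higher (13.2% of all genes). PlaB had 13 called higher and 2 lower than DMSO (32.3% and 26.6% of all genes), and 10 higher and 6 lower than ESC (30.7% and 25.4%). DMSO itself had 3 called higher and 7 lower than ESC (8.32% and 7.91%). In the direct test of Dux KD PlaB against Dux KD Zscan4 OE, in which 5.27% of all genes were called higher and 5.65% lower, 3 were called higher, namely Cdkn1a, Pmaip1 and Fas, with a median of 0.34. The knockdown cells without drug thus lay between ESC and Dux KD PlaB for several members, among them Mdm2, Trp53inp1 and Trp73.

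**Figure D1:**
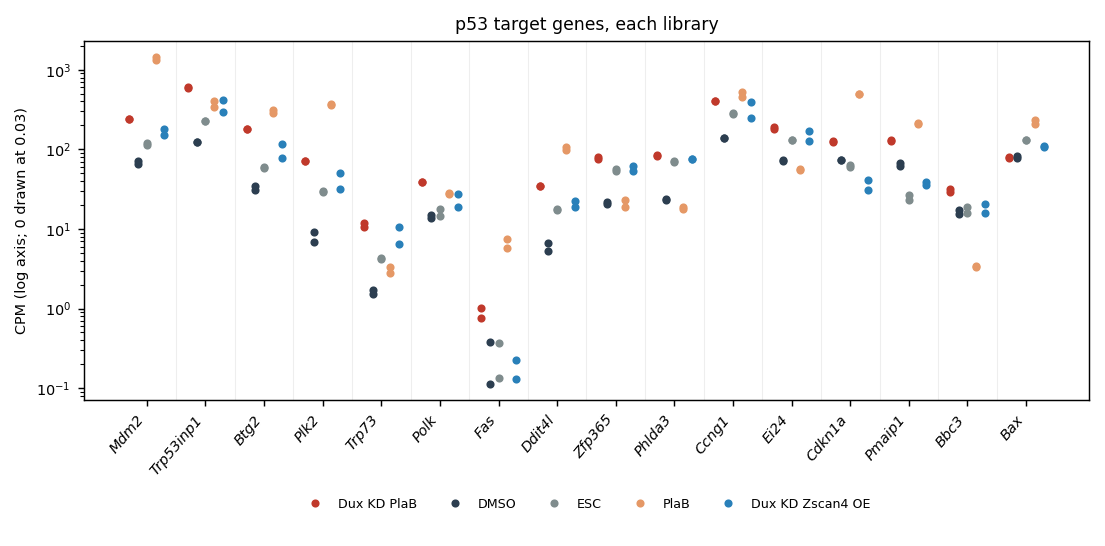
CPM (log axis) of 16 p53 targets in each library, 2 points a group, for Dux KD PlaB, DMSO, ESC, PlaB and Dux KD Zscan4 OE. The Dux KD PlaB points lie above both DMSO and ESC points for Mdm2, Trp53inp1, Btg2, Plk2, Trp73, Polk and Fas, and among the DMSO points for Bax.

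The promoters of 4 of these targets are shown because p53 acts through a defined DNA element, the p53 decamer consensus, which reads the same on both strands. The sequences are the 250 bases before an annotated start, from RefSeq on GRCm38.p6, with matches to the decamer in capitals. Mdm2 lies at chr10:117710759-117711008 (minus strand), Ccng1 at chr11:40755287-40755536 (minus), the downstream of 2 starts of Polk at chr13:96519188-96519437 (minus) and the upstream start of Cdkn1a at chr17:29090729-29090978 (plus).
Mdm2: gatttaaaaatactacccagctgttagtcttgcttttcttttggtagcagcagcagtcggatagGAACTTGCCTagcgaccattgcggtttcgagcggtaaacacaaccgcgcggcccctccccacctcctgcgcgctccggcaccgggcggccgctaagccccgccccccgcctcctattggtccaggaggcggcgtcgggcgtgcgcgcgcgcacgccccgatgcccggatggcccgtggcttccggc
Ccng1: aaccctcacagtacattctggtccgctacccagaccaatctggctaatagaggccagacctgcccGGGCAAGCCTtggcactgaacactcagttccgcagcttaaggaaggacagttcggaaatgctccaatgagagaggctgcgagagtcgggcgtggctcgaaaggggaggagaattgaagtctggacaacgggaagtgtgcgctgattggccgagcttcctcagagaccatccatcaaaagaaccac
Polk: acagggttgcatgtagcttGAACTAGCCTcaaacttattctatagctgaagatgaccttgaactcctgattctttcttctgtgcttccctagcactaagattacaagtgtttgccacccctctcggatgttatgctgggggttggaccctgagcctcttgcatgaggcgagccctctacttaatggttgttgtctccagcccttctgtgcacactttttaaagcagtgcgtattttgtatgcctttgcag
Cdkn1a: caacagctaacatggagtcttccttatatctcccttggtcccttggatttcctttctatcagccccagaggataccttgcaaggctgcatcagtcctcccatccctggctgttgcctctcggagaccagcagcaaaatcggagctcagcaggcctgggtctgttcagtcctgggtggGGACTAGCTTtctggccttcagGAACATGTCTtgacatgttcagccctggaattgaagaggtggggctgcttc
Of 23 list members with a promoter in the table, 10 had a decamer in this window (43.5%), against 997 of 13364 tested genes (7.46%). The list holds known p53 targets, so a high share of decamers comes with how it was made. Among members with a promoter, 5 of 11 called higher than DMSO and 5 of 12 not called had a decamer. The upstream start of Polk had none. A full site of 2 decamers with at most 13 bases between them was found only in Cdkn1a, and in 9 of the 13364 genes (0.0673%). A match describes the sequence and does not show binding.

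Mdm2, Btg2 and Plk2, members of feedback and growth control, were called higher than both controls. Mdm2 (GRCm38 chr10:117688875-117710758, minus strand, 9 merged exons), the ubiquitin ligase that degrades p53, had 244 and 239.7 CPM in Dux KD PlaB, 71.3 and 65.5 in DMSO, 115 and 121 in ESC, 153 and 181 in Dux KD Zscan4 OE and 1342 and 1445 in PlaB. Dux KD PlaB lay above every DMSO, ESC and Dux KD Zscan4 OE library and below the PlaB libraries. Its log2 fold change was 1.82 ± 0.10 against DMSO (± SE as throughout, adjusted p = 7.2e-14), 1.04 ± 0.09 against ESC and -2.53 ± 0.09 against PlaB (adjusted p = 6.4e-19). Btg2, an antiproliferative gene, had 179.7 and 179 CPM in Dux KD PlaB, 34.2 and 31.1 in DMSO, 60.6 and 58.8 in ESC and 317 and 289 in PlaB, with 2.46 ± 0.12 against DMSO and 1.59 ± 0.12 against ESC. Plk2, a polo-like kinase, had 70.5 and 71.8 CPM, 6.92 and 9.15, 30.1 and 28.7 and 363 and 373 in the same order of groups. Both were again between the controls and PlaB.

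Trp53inp1 and Trp73 stood above the drug-treated wild-type cells as well. Trp53inp1, a p53-induced nuclear protein, had 605 and 593 CPM in Dux KD PlaB, 125 and 122 in DMSO, 225 and 225 in ESC, 291 and 420.1 in Dux KD Zscan4 OE and 340.4 and 409 in PlaB. Its log2 fold change was 2.28 ± 0.13 against DMSO, 1.41 ± 0.13 against ESC and 0.68 ± 0.12 against PlaB, the last under the threshold of 1. Trp73, a member of the p53 family, had 10.6 and 11.7 CPM in Dux KD PlaB, 1.53 and 1.70 in DMSO, 4.23 and 4.26 in ESC and 2.76 and 3.31 in PlaB, and was called higher than all of these, with a log2 fold change of 1.87 ± 0.20 against PlaB. In Dux KD Zscan4 OE it had 6.55 and 10.5 CPM, which reached close to Dux KD PlaB in 1 library. Polk, a polymerase that copies damaged DNA, had 39.1 and 39.3 CPM against 17.7 and 14.7 in ESC and 13.6 and 14.8 in DMSO.

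Effectors of arrest and cell death differed in which control they were called against. Cdkn1a, which encodes the cyclin-dependent kinase inhibitor p21, had 123 and 127 CPM in Dux KD PlaB, 74.3 and 72.9 in DMSO, 64.4 and 59.2 in ESC, 40.7 and 30.6 in Dux KD Zscan4 OE and 499 and 495 in PlaB. The groups do not overlap, but the difference from DMSO (0.76 ± 0.12, adjusted p = 1.7e-05) is under the fold threshold, and that from ESC (1.02 ± 0.12) is over it. Pmaip1, the proapoptotic protein Noxa, had 129 and 126 CPM, 67.6 and 61.9 in DMSO, 26.6 and 23.4 in ESC and 35.4 and 38.7 in Dux KD Zscan4 OE, with 0.98 ± 0.10 against DMSO (past the threshold, at 1.04, without DMSO replicate 1 or with library-size scaling) and 2.35 ± 0.10 against ESC. Bbc3, which encodes Puma, had 29.2 and 31.6 CPM against 15.5 and 17.3 in DMSO (0.89 ± 0.13), 18.9 and 15.8 in ESC (0.81 ± 0.14) and 3.29 and 3.45 in PlaB. Bax had 81.0 and 77.5 CPM in Dux KD PlaB and 83.6 and 78.5 in DMSO, which overlap, and was below ESC (132 and 131 CPM). The death receptor Fas rose from 0.113 and 0.384 CPM in DMSO to 0.766 and 1.02, at 2 to 17 counts a library. Without Dux KD PlaB replicate 2 or DMSO replicate 1 it was not called, at 1.59 and 1.20 (edgeR adjusted p = 0.086 and 0.15). Ddit4l, Zfp365, Phlda3, Ccng1 and Ei24 were called higher than DMSO, by log2 fold changes of 2.54, 1.87, 1.83, 1.57 and 1.36, and not against ESC, where the values were 0.97, 0.50, 0.23, 0.53 and 0.51.

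**Figure D2:**
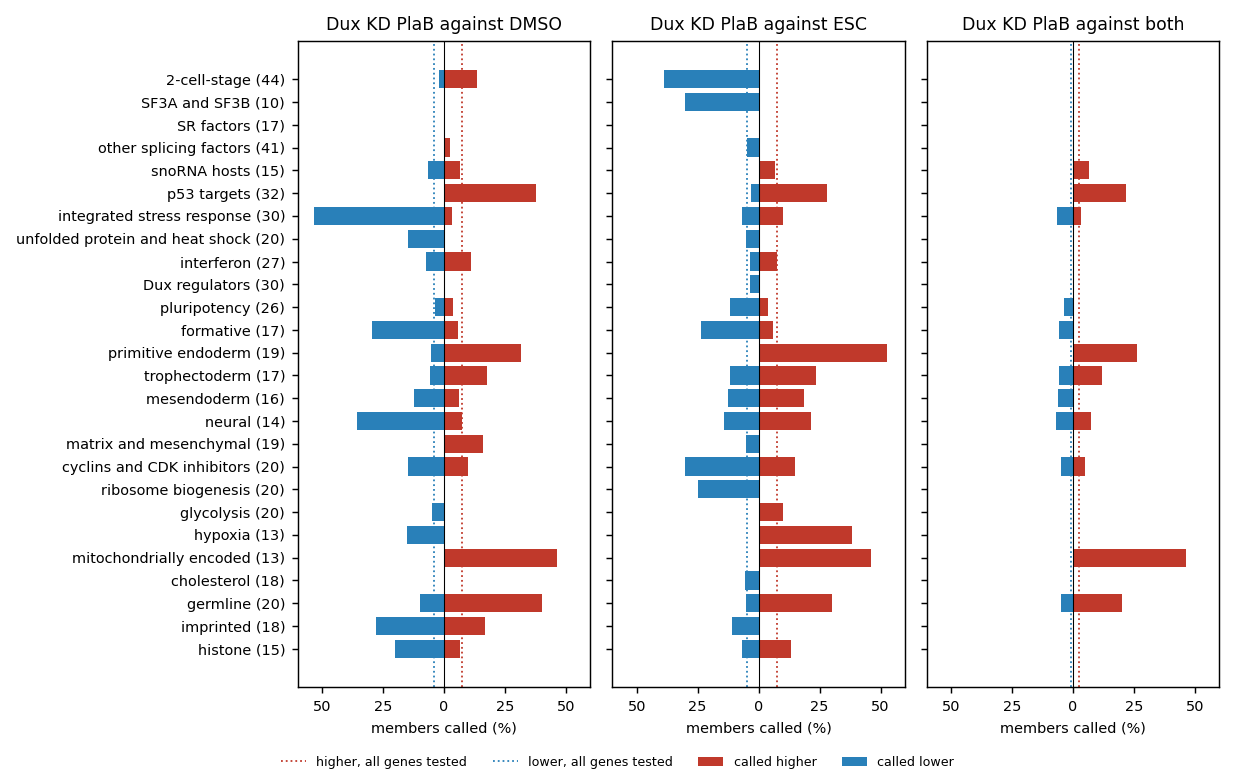
Percent of the tested members of each gene list (number tested in brackets) called higher (right) or lower (left) in Dux KD PlaB against DMSO, against ESC and against both, with dotted lines for all genes tested. The p53, primitive endoderm, mitochondrially encoded and germline lists keep their upward bars in all 3 panels, and the downward bar of the integrated stress response is long only against DMSO.

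Genes of the primitive endoderm, the inner layer of the blastocyst that forms yolk sac, included several that were higher against both controls. Of 19 tested members, 6 were called higher (7.53% of all genes were) and 1 lower (4.14%) than DMSO, 10 were called higher than ESC (7.51%) and none lower, and 5 were called higher than both (2.53%), among them Cubn, Dab2, Hnf4a and Pdgfra. In Dux KD Zscan4 OE against ESC, 1 was called higher (5.56% of all genes) and 1 lower (2.55%), and the direct test against Dux KD Zscan4 OE called 7 higher (5.27%). SE KO PlaB had 12 called higher than ESC and none lower (13.2% and 7.01% of all genes). PlaB had 9 called higher and 5 lower than DMSO (32.3% and 26.6%), and 7 higher and 7 lower than ESC (30.7% and 25.4%). Cubn (GRCm38 chr2:13276338-13491813, minus strand, 66 merged exons), the endocytic receptor cubilin of yolk sac endoderm, had 14.4 and 15.4 CPM in Dux KD PlaB, 0.227 and 0.329 in DMSO, 0.934 and 0.999 in ESC, 0.584 and 1.28 in Dux KD Zscan4 OE and 2.03 and 1.77 in PlaB. Dux KD PlaB was the highest of these 5 groups, with log2 fold changes of 5.71 ± 0.33 against DMSO (adjusted p = 4.1e-13), 3.94 ± 0.27 against ESC and 2.97 ± 0.23 against PlaB. Dab2, an endocytic adaptor that works with it, had 15.4 and 17.0 CPM in Dux KD PlaB, 1.98 and 1.10 in DMSO, 2.49 and 2.60 in ESC and 8.33 and 9.52 in PlaB. Its log2 fold changes were 3.39 ± 0.21 and 2.67 ± 0.20 against the controls. The transcription factor Hnf4a had 16.9 and 15.2 CPM against 1.42 and 1.59 in DMSO, 7.78 and 6.99 in ESC and 1.55 and 1.36 in PlaB.

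Of the transcription factors that define primitive endoderm, Gata6 and Gata4 were not called against DMSO. Gata6 had 2.06 and 2.21 CPM in Dux KD PlaB, 1.64 and 1.64 in DMSO, 1.12 and 0.599 in ESC and 5.91 and 5.53 in PlaB, and was called higher than ESC only. Gata4 had 4.13 and 3.59 CPM, 2.66 and 1.97 in DMSO and 1.37 and 1.67 in ESC, and was likewise called against ESC only, as were the basement membrane collagens Col4a1 and Col4a2. Sox7 was called lower than DMSO, at 0.766 and 0.777 against 3.00 and 3.01 CPM. Foxa2 was called higher, but at 1 and 5 counts against 0 and 0 in DMSO, a bound of 1.07-fold, and not without DMSO replicate 1 or 2 or Dux KD PlaB replicate 2. The summed level of 7 primitive endoderm markers was 25.9 to 27.9 CPM in Dux KD PlaB, 8.82 to 10.7 in DMSO, 7.19 to 7.22 in ESC and 32.8 to 37.8 in PlaB. In bulk RNA, more cells of this type and more RNA per cell cannot be told apart. The trophectoderm list had 3 of 17 called higher and 1 lower than DMSO (7.53% and 4.14% of all genes), and 4 higher and 2 lower than ESC (7.51% and 4.83%). SE KO PlaB had 13 called higher and 1 lower than ESC (13.2% and 7.01%), and Dux KD Zscan4 OE 6 higher and none lower (5.56% and 2.55%). PlaB had 11 called higher and 5 lower than DMSO (32.3% and 26.6%). Krt7, a keratin called higher than both controls, had 3.12 and 3.53 CPM in Dux KD PlaB, 0.113 and 0.384 in DMSO and 0.124 and 0.133 in ESC. Cdx2 and Elf5, which define the lineage, were at the floor in Dux KD PlaB and DMSO.

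**Figure D3:**
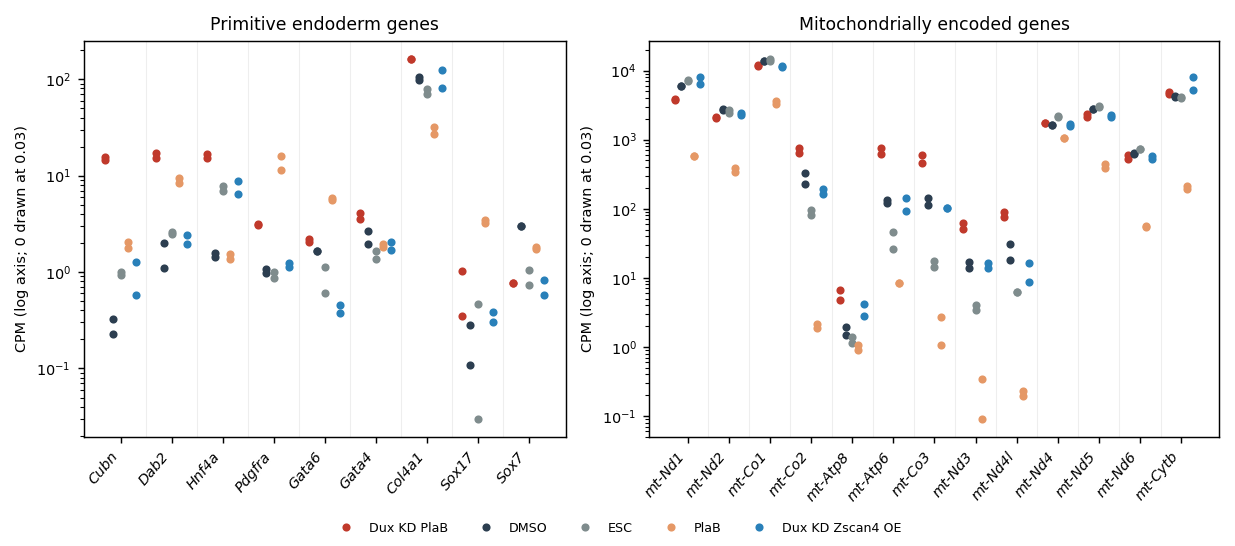
CPM (log axis) of primitive endoderm genes (left) and the 13 mitochondrially encoded protein genes (right) in each library, 2 points a group. Dux KD PlaB is highest for Cubn, Dab2 and Hnf4a, and for mt-Co2, mt-Atp8, mt-Atp6, mt-Co3, mt-Nd3 and mt-Nd4l, and it is not highest for mt-Nd1, mt-Co1 or mt-Nd5.

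Genes encoded by the mitochondrial genome split into those that rose and those that did not. Of the 13 protein genes, 6 were called higher than DMSO and the same 6 than ESC, against 7.53% and 7.51% of all genes (mt-Nd3, mt-Nd4l, mt-Co2, mt-Co3, mt-Atp6 and mt-Atp8). In PlaB, 11 of the 13 were called lower than DMSO (26.6% of all genes were). mt-Co3, a subunit of cytochrome c oxidase, had 465 and 591 CPM in Dux KD PlaB, 114 and 141 in DMSO, 14.4 and 17.5 in ESC, 103 and 104 in Dux KD Zscan4 OE and 1.06 and 2.72 in PlaB. Its log2 fold change was 2.05 ± 0.20 against DMSO (adjusted p = 1.3e-08) and 8.10 ± 0.31 against PlaB. mt-Atp6, a subunit of ATP synthase, had 625 and 748 CPM in Dux KD PlaB, 122 and 134 in DMSO, 26.4 and 45.8 in ESC and 8.28 and 8.48 in PlaB. The abundant mt-Co1 had 11999 and 11582 CPM in Dux KD PlaB, 13668 and 13876 in DMSO and 14806 and 13960.1 in ESC, and mt-Nd1 had 3841 and 3709, 5937 and 5949 and 6996 and 7396. Over all mitochondrial genes the share of counts was 2.95% and 2.89% in Dux KD PlaB, 3.11% and 3.13% in DMSO, 3.16% and 3.09% in ESC and 1.40% and 1.56% in PlaB. The total therefore did not rise with the 6 genes. In Dux KD Zscan4 OE against ESC, 5 of the 13 were called higher (5.56% of all genes were). DMSO against ESC likewise had 5 called higher (8.32%), and SE KO PlaB against ESC had 6 (13.2%). mt-Atp8 overlaps mt-Atp6 and mt-Nd4l overlaps mt-Nd4, near copies of mitochondrial genes lie in the nuclear genome, and how such reads were counted is not stated, so that single values are uncertain.

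Pseudogenes took a large part of the upward calls. Of 1878 tested pseudogenes, 364 were called higher than DMSO (19.4%) and 39 lower (2.08%), and they made up 23.1% of all genes called higher. Against ESC, 296 were called higher (15.8%), and against both controls 192 (10.2%), which is 36.2% of the 530. Their median log2 fold change against DMSO was 0.44, against 0.00 over protein-coding genes, of which 944 of 15549 were called higher (6.07%) and 713 lower (4.59%). Most of these pseudogenes have 1 exon. Of single-exon pseudogenes, 323 of 1514 were called higher than DMSO (21.3%) and 265 higher than ESC (17.5%), while 53 of 509 single-exon protein-coding genes (10.4%) and 59 of 1268 single-exon genes of other RNA types (4.65%) were called higher than DMSO. In Dux KD Zscan4 OE against ESC, 83 of the 1514 single-exon pseudogenes were called higher (5.48%), near the 5.56% of all genes. Pseudogenes took 2.18% and 2.29% of all counts in Dux KD PlaB, 1.81% and 1.82% in DMSO, 1.82% in both ESC libraries and 2.46% and 2.38% in PlaB. The share was 1.59% and 1.69% in SE KO PlaB and 1.92% and 1.85% in Dux KD Zscan4 OE. Cells overexpressing Dux, without pladienolide B by their labels, had 2.28% and 2.27%, at the level of Dux KD PlaB.

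Copies of ribosomal protein genes were among them. Of 111 pseudogenes named for a ribosomal protein, 35 were called higher than DMSO (31.5%) and 31 higher than ESC (27.9%), with a median log2 fold change of 0.78 against DMSO. In PlaB against ESC the same 111 had 26 called higher (23.4%) and 39 lower (35.1%), with a median of -0.57, whereas all 1878 pseudogenes had 35.7% called higher and 23.6% lower. Rps13-ps4 had 5.48 and 6.57 CPM in Dux KD PlaB, 0.907 and 0.712 in DMSO, 0.498 and 1.07 in ESC and 1.501 and 1.68 in PlaB, a log2 fold change of 2.89 ± 0.32 against DMSO and 2.95 ± 0.33 against ESC. Gm13340 and Gm8130 are not named for a ribosomal protein and are not among the 111. They are given here as single-exon genes with large rises. Gm13340 had 53.2 and 66.3 CPM in Dux KD PlaB, 3.86 and 5.37 in DMSO, 6.66 and 6.66 in ESC, 3.18 and 2.63 in Dux KD Zscan4 OE and 0.823 and 0.771 in PlaB. Gm8130 had 4.77 and 4.54 CPM in Dux KD PlaB and at most 3 counts in either DMSO library, at least 27.9-fold lower there. All 3 were called higher than ESC as well. Reads of a processed pseudogene can come from its parent gene, and the treatment of reads that fit several places is not stated, so these values are uncertain. With pseudogenes left out, an alternative chosen after seeing the data, 1213 genes were called higher and 828 lower than DMSO, and 338 higher and 136 lower than both controls.

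**Figure D4:**
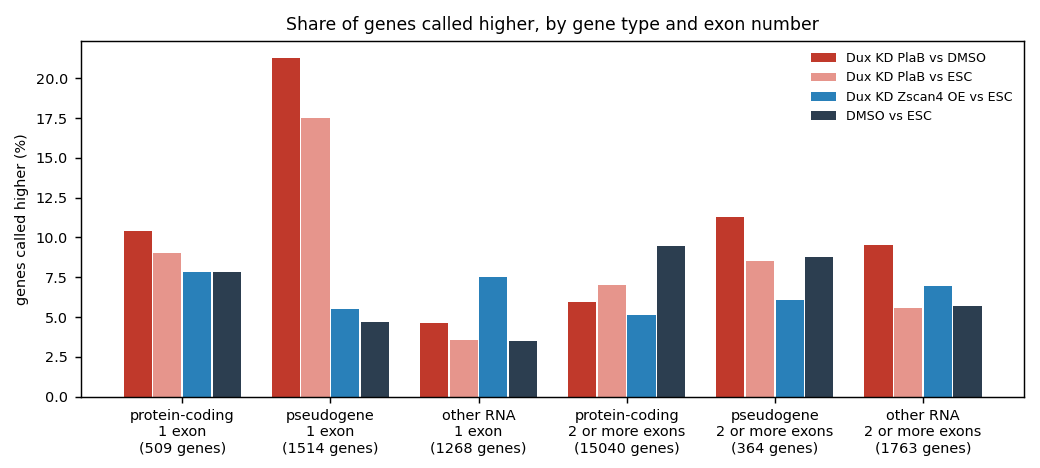
Percent of tested genes called higher, by gene type and by whether the annotation lists 1 exon or more, for Dux KD PlaB against DMSO and against ESC, Dux KD Zscan4 OE against ESC and DMSO against ESC. Single-exon pseudogenes stand out at 21.3% and 17.5% in the Dux KD PlaB comparisons, and lie at 5.48% and 4.69% in the other comparisons.

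The drug's own target complex and the splicing machinery showed few calls against DMSO. Over all genes, 7.53% were called higher and 4.14% lower than DMSO, and 7.51% and 4.83% than ESC. None of the 10 SF3A and SF3B subunits was called against DMSO in edgeR, with 6 at an unadjusted p under 0.05 and none called in DESeq2, and log2 fold changes ran from -0.72 to 0.38. Against ESC, 3 of the 10 were called lower, a larger share than the 4.83% of all genes. DMSO itself had 1 called higher and 2 lower than ESC (8.32% and 7.91% of all genes). Sf3b1, the subunit that pladienolide B binds, had 951 and 955 CPM in Dux KD PlaB, 732 and 734 in DMSO, 1071 and 1075 in ESC and 483 and 466 in PlaB. It thus lay between DMSO and ESC, and above PlaB by a log2 fold change of 1.01 ± 0.08. None of the 17 SR factors and their kinases was called in edgeR, with 6 at an unadjusted p under 0.05 and none called in DESeq2. The kinase Clk1, which controls SR proteins, came closest, with 199 and 200.1 CPM in Dux KD PlaB, 101 and 101 in DMSO, 157 and 165 in ESC and 309.8 and 347 in PlaB, a log2 fold change of 0.99 ± 0.17 against DMSO, and it passed under library-size scaling (1.05). No SR factor or kinase was called against ESC in edgeR. Of 41 other splicing factors, Snrpn was called higher than DMSO, and against ESC none was called higher and 2 lower. Snrpn was under the fold threshold with no low-count filter (0.98), without Dux KD PlaB replicate 1 (0.97) and without DMSO replicate 2 (0.99). Of 15 host transcripts of small nucleolar RNAs, whose spliced forms are degraded by nonsense-mediated decay, Snhg20 was called higher and Snhg18 lower than DMSO, and against ESC 1 was called higher, again Snhg20. Snhg20 had 16.3 and 16.1 CPM against 7.31 and 8.00 in DMSO, 6.47 and 7.93 in ESC and 20.05 and 14.4 in Dux KD Zscan4 OE, and Gas5 had 98.7 and 93.7 against 82.5 and 83.1 in ESC and 109 and 107 in DMSO.

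The shift with gene structure was small, and in the medians it was seen against DMSO only. Genes with over 10 exons took 50.8% and 50.9% of counts in Dux KD PlaB, 52.3% and 52.5% in DMSO, 52.0% and 52.2% in ESC and 38.1% and 38.8% in PlaB. Single-exon genes took 6.39% and 6.41% in Dux KD PlaB, 6.10% and 6.12% in DMSO, 6.29% and 6.20% in ESC and 8.21% and 8.81% in PlaB. Dux KD PlaB was thus on the side of PlaB for both classes, at a distance from DMSO that was small beside that of PlaB. Dux KD Zscan4 OE, without the drug by its labels, lay further to that side. Genes with over 10 exons took 47.5% and 47.2% there, and single-exon genes 8.47% and 11.4%. SE KO PlaB, with the drug, had 52.5% and 50.9% for over 10 exons, within or near the range of the controls. Its single-exon genes took 8.145% and 7.60%, more than in any control library and near PlaB. Once mitochondrial genes were left out, these shares were 3.11% and 3.31%, where the control libraries ran from 3.08% to 3.23%. The cause of the shift was not tested. The median log2 fold change against DMSO was 0.17 over 3499 single-exon genes, 0.07 over genes with 2 to 4 exons, 0.00 over those with 5 to 10 and -0.04 over 7066 genes with more. Against ESC the same medians were 0.00, -0.04, 0.00 and 0.0059, and in DMSO against ESC they were -0.20, -0.14, -0.0046 and 0.03. In PlaB against DMSO they were 0.98, 0.73, 0.41 and -0.41. The table counts reads per gene, so retained introns and exon skipping were not analysed here.

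Genes that answer to the drug in wild-type cells were taken from PlaB against ESC, which shares no library with the comparison. Of the 6424 genes called higher there, 1677 had at most 3 counts in each of the 4 Dux KD PlaB and DMSO libraries. Of the other 4747, 612 were called higher in Dux KD PlaB than in DMSO (12.9%, against 8.41% of the 18601 tested genes above that floor) and 197 lower (4.15%, against 4.65%), with a median log2 fold change of 0.16. Their median in PlaB against ESC, all 6424 taken, was 2.41. Of the 5319 genes called lower in PlaB than in ESC (25.4% of all), 5282 were above the floor, and of these 311 were called lower in Dux KD PlaB than in DMSO (5.89%) and 294 higher (5.57%), with a median of -0.09. In PlaB against ESC the median of the 5319 was -2.13. Genes that rose with the drug were thus called higher more often than genes at large, by a small part of their change in PlaB, and genes that fell with it were called lower somewhat more often (5.89% against 4.65%) and higher less often (5.57% against 8.41%) than genes at large.

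**Figure D5:**
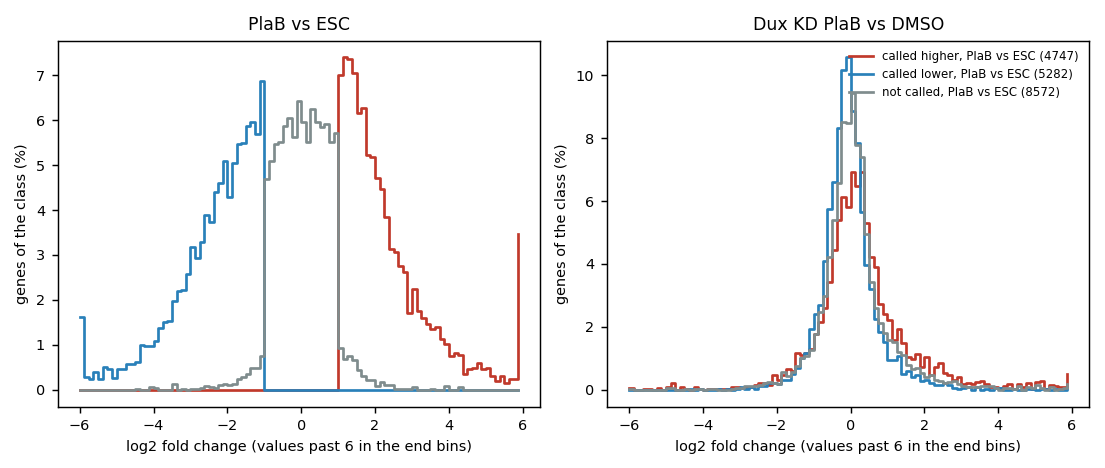
Share of genes (percent of each class) by log2 fold change in PlaB against ESC (left) and in Dux KD PlaB against DMSO (right), for genes called higher, called lower and not called in PlaB against ESC, leaving out genes at the floor in the 4 libraries of the right panel. The classes lie apart on the left by construction, and on the right all 3 centre near 0, with the genes called higher carrying the heavier right side.

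The SE KO PlaB libraries give another list from libraries outside the comparison. Of 2769 genes called higher in SE KO PlaB than in ESC, 488 were called higher in Dux KD PlaB than in DMSO (17.6% of them and 30.9% of the 1577, against 7.53% of all genes), and 133 lower (4.80%, against 4.14%). Of 1468 called lower there (7.01% of all genes), 152 were called lower (10.4%) and 127 higher (8.65%). Dux KD Zscan4 OE against ESC gave 1165 genes called higher and 534 lower. Of the 1165, 336 were called higher in Dux KD PlaB than in DMSO (28.8% of the 1165 and 21.3% of the 1577, against 7.53% of all genes) and 53 lower (4.55%, against 4.14%). Of the 534, 77 were called lower (14.4% of the 534 and 8.88% of the 867, against 4.14% of all genes) and 40 higher (7.49%, against 7.53%). These knockdown cells had no drug by their labels and were measured against the other control.

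Genes shared with those knockdown cells included germline genes, of which many were also called in drug-treated cells without the knockdown. Of 20 tested germline and meiosis genes, 8 were called higher than DMSO and 2 lower (7.53% and 4.14% of all genes), 6 were called higher than ESC and 1 lower (7.51% and 4.83%), and 8 were called higher and 2 lower in Dux KD Zscan4 OE than in ESC (5.56% and 2.55%). PlaB had 14 called higher and 2 lower than DMSO (32.3% and 26.6% of all genes), and 16 higher and 1 lower than ESC (30.7% and 25.4%). SE KO PlaB had 16 called higher than ESC and none lower (13.2% and 7.01%). Dazl, an RNA-binding protein of germ cells, had 29.5 and 28.9 CPM in Dux KD PlaB, 3.97 and 3.40 in DMSO, 6.54 and 8.06 in ESC, 37.7 and 28.5 in Dux KD Zscan4 OE and 49.4 and 55.6 in PlaB. The knockdown groups overlapped and lay above both controls, with log2 fold changes of 2.99 ± 0.18 (Dux KD PlaB against DMSO, adjusted p = 6.0e-13) and 2.19 ± 0.16 (Dux KD Zscan4 OE against ESC). Stra8, which opens meiosis, went the other way, with 1.36 and 1.49 CPM in Dux KD PlaB, 18.9 and 20.1 in DMSO, 9.03 and 9.79 in ESC, 3.63 and 1.35 in Dux KD Zscan4 OE and 46.8 and 41.4 in PlaB. Dux KD PlaB overlapped with Dux KD Zscan4 OE and lay below the other groups, by -3.77 ± 0.22 against DMSO and -4.95 ± 0.20 against PlaB. Stk31, Hormad1 and Brdt were also called higher against both controls, although without Dux KD PlaB replicate 1 or DMSO replicate 2 Brdt fell under the fold threshold (0.88 and 0.87), and Tex19.1 against DMSO only (28.1 and 27.1 CPM, 4.42 and 4.38 in DMSO and 36.0 and 36.4 in ESC). Xlr3a, Srgn, Catip and Gm24187 were the other largest rises shared with Dux KD Zscan4 OE, and Ina, Grm4, Gm49450 and Ajap1 the other largest falls. Gm49450 was not called against DMSO without Dux KD PlaB replicate 2 or DMSO replicate 2 (-1.48 and -1.21). Xlr3a, an X-linked gene of the Xlr family, had 17.3 and 17.5 CPM in Dux KD PlaB, against 1.19 and 0.384 for DMSO, 1.74 and 2.06 for ESC and 13.2 and 15.7 for Dux KD Zscan4 OE.

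The integrated stress response, in which ATF4 induces amino acid synthesis and transport, was lower than DMSO in many members and lower than ESC in few. Of 30 tested members, 16 were called lower and 1 higher than DMSO (53.3% lower, against 4.14% of all genes), with a median log2 fold change of -1.01. Against ESC, 2 were called lower and 3 higher (4.83% and 7.51% of all genes), with a median of -0.40. Chac1, a glutathione-degrading target of ATF4, had 5.19 and 3.89 CPM in Dux KD PlaB, 29.5 and 30.4 in DMSO, 8.90 and 9.26 in ESC and 4.26 and 5.22 in PlaB. The DMSO libraries stood above all others named. Atf4 had 134 and 135 CPM in Dux KD PlaB, 240.3 and 237 in DMSO and 160.2 and 169 in ESC, and Vldlr, a lipoprotein receptor, 2.83 and 3.11, 14.9 and 14.4 and 0.871 and 0.666, which made Vldlr lower than DMSO and higher than ESC. Psat1, an enzyme of serine synthesis, and Atf5 were called lower than both, Psat1 at 329 and 321 CPM against 668 and 669 in DMSO, 663 and 651 in ESC and 317 and 300.1 in Dux KD Zscan4 OE. With library-size scaling Psat1 was under the fold threshold against DMSO (-0.98). Slc7a11, the cystine transporter, was called higher than both, at 3.54 and 3.53 CPM against 0.907 and 0.712 and 0.809 and 0.666.

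Other stress lists also held genes that were high in DMSO. Over all genes, 7.53% were called higher and 4.14% lower than DMSO, and 7.51% and 4.83% than ESC. The hypoxia-responsive genes Vegfa and Ndrg1 were called lower than DMSO, 2 of 13, while 5 of 13 were called higher than ESC and none lower. DMSO itself had 11 of the 13 called higher than ESC (8.32% of all genes). Vegfa had 43.7 and 40.5 CPM in Dux KD PlaB, 123 and 119 in DMSO and 25.2 and 27.1 in ESC, so that Dux KD PlaB lay between the controls. Of 20 genes of the unfolded protein and heat shock response, Herpud1, Hspa1a and Hspa1b were called lower than DMSO, and 1 was called lower than ESC. Hspa1a was not called against DMSO without Dux KD PlaB replicate 1 or 2 or DMSO replicate 2 (-1.72, -1.74 and -1.28, edgeR adjusted p = 0.057, 0.054 and 0.15). Herpud1 had 12.3 and 12.7 CPM against 35.8 and 36.3, 19.8 and 20.9 in ESC and 124 and 115 in PlaB. Of 20 glycolysis genes, 1 was called lower than DMSO, the glucose transporter Slc2a1, whereas 13 were called lower in PlaB than in DMSO (26.6% of all genes were). Against ESC, 2 were called higher in Dux KD PlaB. Of 27 interferon and double-stranded RNA response genes, 3 were called higher (Irf1, Ddx58 and Zbp1) and 2 lower (Ifitm3 and H2-K1) than DMSO, and none of these 5 was called against ESC, where 2 others were called higher and 1 lower. None of 20 ribosome biogenesis genes, 18 cholesterol synthesis genes or 30 regulators of Dux was called against DMSO in edgeR. At an unadjusted p under 0.05 there were 12, 11 and 16 in the same order, and DESeq2 called 1 ribosome biogenesis gene lower and none of the others. Against ESC, 5 ribosome biogenesis genes, 1 cholesterol synthesis gene and 1 regulator of Dux were called lower. In PlaB against DMSO, 17 of the 30 regulators of Dux were called lower and 3 higher (26.6% and 32.3% of all genes were).

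Pluripotency genes gave few calls. Over all genes, 7.53% were called higher and 4.14% lower than DMSO, and 7.51% and 4.83% than ESC. Of 26 tested core and naive genes, Dnmt3l was called higher and Utf1 lower than DMSO, where PlaB had 14 called lower and 2 higher (26.6% and 32.3% of all genes). Against ESC, 1 was called higher and 3 lower in Dux KD PlaB. Nanog had 612 and 602 CPM in Dux KD PlaB, 887 and 935 in DMSO, 664 and 676 in ESC and 69.6 and 78.6 in PlaB, and Sox2 had 722 and 722, 594 and 590.1, 390.4 and 377 and 21.5 and 30.8. Dux KD PlaB stood far above PlaB in both, by log2 fold changes of 3.03 ± 0.08 and 4.78 ± 0.13. Utf1, a chromatin factor of pluripotent cells, had 161 and 173 CPM in Dux KD PlaB, 411 and 433 in DMSO, 364 and 368 in ESC and 196 and 175 in Dux KD Zscan4 OE, and was called lower than both controls. Of 17 formative and primed genes, Otx2 was called higher than DMSO and Zic2, Zic5, Pou3f1, Fgf15 and Sox11 lower, and against ESC 1 was called higher and 4 lower. Otx2, a homeobox factor of the epiblast, had 53.7 and 54.2 CPM in Dux KD PlaB, 7.09 and 8.99 in DMSO, 27.9 and 28.6 in ESC and 54.8 and 37.7 in Dux KD Zscan4 OE. Zic2, a zinc finger factor of primed cells, had 2.42 and 2.51 CPM, 28.3 and 31.7 in DMSO, 12.8 and 10.9 in ESC and 0.242 and 0.0453 in PlaB, and was the only gene of the list called lower than both controls. Its log2 fold change was -3.60 ± 0.37 against DMSO (adjusted p = 2.1e-08) and -2.26 ± 0.39 against ESC, and the Dux KD Zscan4 OE libraries had 4.80 and 21.6 CPM.

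Of 20 cyclins, kinases and kinase inhibitors, 2 were called higher and 3 lower than DMSO (7.53% and 4.14% of all genes), and 3 higher and 6 lower than ESC (7.51% and 4.83%). Cyclin D2, which drives entry into S phase, had 3.65 and 3.35 CPM in Dux KD PlaB, 25.7 and 24.5 in DMSO, 43.6 and 40.2 in ESC, 17.6 and 19.5 in Dux KD Zscan4 OE and 7.89 and 6.85 in PlaB. Dux KD PlaB was below all the others, by log2 fold changes of -2.84 ± 0.17 (DMSO, adjusted p = 6.0e-13), -3.58 ± 0.17 (ESC) and -1.07 ± 0.18 (PlaB). Cdkn2b, which encodes the inhibitor p15, was called higher than both controls at 3.01 and 2.03 CPM against 0.510 and 0.0548 in DMSO and 1.12 and 0.866 in ESC. Cdkn2a was called higher than DMSO only, at 8.19 and 7.77 CPM against 1.02 and 1.92 and 6.97 and 6.39, and Mycn and Cdkn1c were called lower than DMSO and not lower than ESC.

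The 10 largest rises from DMSO, among genes of moderate level, were Ly6a, Txlnb, Cubn, Gm2379, E330020D12Rik, Anxa8, Gm8130, Srgn, Dglucy and Xlr3a. Of these, Txlnb, Cubn, E330020D12Rik, Anxa8, Gm8130, Srgn and Xlr3a were also called higher than ESC. Ly6a, which encodes the surface antigen Sca-1, had 6.13 and 5.86 CPM in Dux KD PlaB, at most 3 counts in either DMSO library, and 9.21 and 9.26 in ESC, so that it was at least 35.8-fold higher than DMSO and not higher than ESC. Anxa8, an annexin, had 9.13 and 10.5 CPM in Dux KD PlaB, 0.113 and 0.438 in DMSO, 1.31 and 1.80 in ESC, 3.44 and 2.63 in Dux KD Zscan4 OE and 63.3 and 65.9 in PlaB, which placed it between the controls and PlaB. Srgn, the proteoglycan serglycin, had 6.42 and 5.92 CPM in Dux KD PlaB, 0.340 and 0.164 in DMSO, 0.187 and 0.133 in ESC and 5.03 and 5.17 in PlaB, at the level of PlaB. Dglucy had 19.4 and 19.8 CPM against 0.737 and 0.932 in DMSO and 23.0 and 20.05 in ESC, so that DMSO alone was low. Prr15l and Dab2 joined Srgn, Xlr3a and Rps13-ps4 as the 5 largest rises among genes called higher against both controls and in PlaB against ESC.

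The 10 largest falls included Tex13b, Stra8, Zic2, H2-Bl, Zfp521, Ccnd2, Cntfr, Chac1 and Zic5. Of these, Stra8, Zic2, Ccnd2 and Cntfr were also called lower than ESC. Tex13b had 1.24 and 1.61 CPM in Dux KD PlaB, 40.5 and 40.7 in DMSO and 0.871 and 0.933 in ESC, so that DMSO stood above both. The same held for Zfp521 (1.77 and 1.61, 14.3 and 11.5 and 1.31 and 1.07 CPM) and H2-Bl. Called lower against both controls and in PlaB against ESC, the 5 largest falls included Ccnd2, Zic2, Tcf7l1 and Ina. Tcf7l1, a repressor of the Wnt pathway in stem cells, had 4.30 and 4.90 CPM in Dux KD PlaB, 22.6 and 25.04 in DMSO, 18.1 and 17.8 in ESC, 21.2 and 19.6 in Dux KD Zscan4 OE and 5.62 and 5.99 in PlaB. Here Dux KD PlaB was at the level of PlaB (-0.33 ± 0.16 on the log2 scale) and below the other groups.

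For the lists that follow, the shares of all genes were 7.53% higher and 4.14% lower than DMSO, and 7.51% and 4.83% than ESC. Of 14 neural genes, Neurod1 was called higher than both controls, at 7.84 and 8.19 CPM against 1.42 and 1.64 in DMSO, 1.49 and 1.53 in ESC and 12.5 and 15.3 in PlaB, and 5 were called lower than DMSO, led by Gap43, with 3 called higher and 2 lower than ESC. Gap43 had 8.19 and 6.63 CPM in Dux KD PlaB, 39.6 and 42.0 in DMSO and 7.53 and 7.33 in ESC. Of 16 mesendoderm genes 1 was called higher and 2 lower than DMSO, and 3 higher and 2 lower than ESC, and Mixl1 was called lower than both controls at 1 and 7 counts, and not against DMSO without Dux KD PlaB replicate 1 or DMSO replicate 1 (-1.33 and -1.94). Of 19 matrix and mesenchymal genes 3 were called higher than DMSO, among them Ccn2 at 3.36 and 2.75 CPM against 0.227 and 0.493, with 2.93 and 2.86 in ESC, and 1 was called lower than ESC. Of 18 imprinted genes 3 were called higher and 5 lower than DMSO, and none of these 8 against ESC, where 2 others were called lower. Peg10, a retrotransposon-derived imprinted gene, had 352 and 354 CPM in Dux KD PlaB, 1012 and 1031 in DMSO and 525 and 532 in ESC. Of 15 replication-dependent histone genes H1f2 was called higher and H1f5, H1f3 and H4c1 lower than DMSO, and against ESC 2 were called higher and 1 lower. Each of these 4 calls against DMSO was lost without at least 1 library. H1f2 was under the fold threshold without DMSO replicate 1 (0.75), H1f5 was not called without Dux KD PlaB replicate 2 (-2.13) nor H4c1 without Dux KD PlaB replicate 1 (-2.30), and H1f3 was not called with no low-count filter, in DESeq2 or without any 1 of the 4 libraries (-1.41 to -1.14). H1f2, a linker histone, had 5.19 and 4.42 CPM against 1.53 and 2.85 in DMSO and 9.59 and 6.99 in ESC, and poly(A) selection captures few of these transcripts.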

How the data were processed

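Poly(A) RNA of R1 mESCs was sequenced from NEBNext Ultra II libraries. The deposited file holds raw read counts per gene for 26 libraries of 13 groups. By the submitters' processing notes the authors used FastQC, Trimmomatic, STAR, featureCounts and DESeq2 with mm10. Versions, strand setting and handling of reads with several matches are not given in the sources used here. Of 55291 genes, 53292 were named in GENCODE M21 and 99.3% of these had the same start and end, which places the table on GRCm38.

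Counts were fitted with edgeR 4.0.16 in R 4.3.3 (TMM scaling, filterByExpr, quasi-likelihood F-test with Benjamini-Hochberg adjustment, prior count 0.125), with all 26 libraries in 1 model and no covariate. A call needs an adjusted p under 0.05 and a log2 fold change of at least 1 in size. The common coefficient of biological variation was 0.0833. Levels are CPM on TMM-scaled library sizes, and compare a gene between libraries, not genes with each other. Genes at or under 3 counts in every library of a group are given as bounds, which cover counting error only. Replicate libraries correlated at 0.983 to 0.992 (Pearson's r of log2 CPM). On simulated counts for this comparison over 20953 genes, edgeR recovered 99% of 200 genes changed by 2 on the log2 scale, with 8 false calls.

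The members and gene lists were chosen with earlier results of these data known. Genes are named by list, and, among genes whose log2 CPM averages 1 or more, as the 10 largest rises and falls from DMSO with no overlap, and the 5 largest each way called the same way against both controls and in PlaB against ESC, or in Dux KD Zscan4 OE against ESC. Of single-exon genes the 5 largest changes each way are named. Some genes that this rule picks are not reported here. Motifs were searched in RefSeq promoters (GRCm38.p6). Alternatives were scaling, filter, DESeq2 1.42.0, fitted groups, replicate block, fold threshold, control group and leaving out each library.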

Additional observations from a re-analysis of the deposited data

Results flagged for a closer look

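Of 543 tested genes on the lists, 15 were called one way in Dux KD PlaB against DMSO and the opposite way in PlaB against DMSO (2.76%, against 1.13% of all 20953 genes, 237 in number). Both comparisons share the DMSO libraries. All 237 were also called in the direct test of Dux KD PlaB against PlaB (edgeR), because its fold change is the difference of the other 2, so that the direct values below describe these genes and add no support. Of the 15, 5 are mitochondrially encoded and were higher than DMSO in Dux KD PlaB and lower in PlaB. The log2 fold change of Dux KD PlaB against PlaB was 8.57 ± 0.60 for mt-Nd4l, 8.45 ± 0.24 for mt-Co2, 8.10 ± 0.31 for mt-Co3, 8.01 ± 0.34 for mt-Nd3 and 6.36 ± 0.37 for mt-Atp6 (± SE, n = 2 and 2). The transcription factor Tfap2a (4.37 ± 0.42) and the cystine transporter Slc7a11 (3.62 ± 0.37) had the same order of groups. The other 8 were lower than DMSO in Dux KD PlaB and higher in PlaB. The linker histones H1f5 and H1f3 differed by -7.92 ± 0.45 and -3.60 ± 0.41, the heat shock gene Hspa1a by -5.66 ± 0.36 and Herpud1, of the unfolded protein response, by -3.26 ± 0.12. The calls against DMSO behind H1f3, H1f5, Hspa1a and Dnah7c were lost in at least 1 fit that left out a library, and that of H1f3 also in DESeq2 and with no low-count filter. Stra8 differed by -4.95 ± 0.20, Dnah7c by -4.37 ± 0.26, the differentiation inhibitor Id2 by -3.41 ± 0.19 and Eif4ebp1, a repressor of translation, by -2.32 ± 0.09. Groups of 2 libraries are too small for a test of single outlying samples.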

How the results depend on the processing

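The counts of genes called in Dux KD PlaB against DMSO stayed within 1.5 times of 1577 and 867 with RLE or library-size scaling, no low-count filter, DESeq2 (1414 higher and 794 lower), a model restricted to the compared groups, a replicate block, and without the SE KO RA library whose labels disagree on its genotype. Leaving out 1 library gave 1153 to 1275 higher and 686 to 771 lower, where the lone library of a group is assumed to vary like the other groups. The same ranges were 12027 to 12278 for PlaB against DMSO, 11063 to 11431 for Dux KD PlaB against PlaB, 2058 to 2138 against ESC, 2890 to 2978 for DMSO against ESC, 10937 to 11554 for PlaB against ESC, 3443 to 4616 for SE KO PlaB against ESC, 1284 to 1781 for Dux KD Zscan4 OE against ESC and 1625 to 2375 for Dux KD PlaB against Dux KD Zscan4 OE, and 384 to 446 higher and 111 to 126 lower against both controls. With no fold threshold there were 3705 genes higher and 3571 lower than DMSO, 8343 called against ESC, 9141 in DMSO against ESC, 10175 in SE KO PlaB against ESC, 6943 in Dux KD Zscan4 OE against ESC, 6550 in Dux KD PlaB against Dux KD Zscan4 OE, and 1533 higher and 1399 lower against both controls. Library-size scaling moved the median of all genes by 0.06 in Dux KD PlaB against DMSO, 0.13 against ESC, -0.20 against PlaB and 0.33 in PlaB against ESC. The following were chosen after seeing the data: the alternatives for calls against both controls, and leaving out pseudogenes, which gave 1213 higher and 828 lower than DMSO and 338 higher against both. The median of the drug-responsive genes was 0.34 and -0.15 with the genes of SE KO PlaB against ESC. Without mitochondrial genes, single-exon genes took 3.58% of counts in Dux KD PlaB, 3.08% in DMSO, 3.22% in ESC and 7.14% in PlaB, since those genes have 1 exon.

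With the mean of DMSO and ESC as control, 463 genes were called lower. Of 131 named genes, 33 changed sign with ESC in place of DMSO, on the log2 scale Ajap1 (0.14), Cdkn1c (0.53), Ddx58 (-0.059), Dglucy (-0.13), Fgf15 (0.49), Foxa2 (-0.33), Gas5 (0.22), Gm2016 (-1.44), Gm5662 (-1.42), Grm4 (0.45), H1f2 (-0.79), H2-K1 (0.89), Id2 (0.11), Irf1 (-0.19), Ly6a (-0.62), Mycn (0.51), Ndrg1 (1.45), Sf3b1 (-0.17), Snhg18 (0.63), Snrpn (-0.33), Sox11 (0.61), Tex13b (0.66), Tex19.1 (-0.39), Tfap2a (-0.95), Usp17la (-1.65), Usp17lb (-2.07), Usp17lc (-1.97), Vegfa (0.69), Vldlr (1.93), Zfp521 (0.51), Zscan4d (-2.25), Zscan4f (-1.47) and mt-Nd4 (-0.31). With the mean of both controls these were Gas5 (0.021), Gm2016 (-0.097), Gm5662 (-0.085), Ndrg1 (0.18), Usp17la (-0.19), Usp17lb (-0.23), Usp17lc (-0.018), Zscan4d (-0.95), Zscan4f (-0.48) and mt-Nd4 (-0.12). The cause was not tested. With library-size scaling, Bax changed sign at 0.025. Leaving out 1 library changed the sign of Bax, from -0.079 to 0.015, and of Zscan4f, from -0.025 to 0.88, neither of which was called in any of these fits.

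Replicate numbers did not pair the libraries: the correlation of same-numbered deviations ran from -0.02 to 0.02 over the 9 comparisons. With the replicate block, 1555 genes were called higher and 849 lower than DMSO, and of the 131 named genes Usp17la lost its call (1.27, edgeR adjusted p = 0.055). Depth limits statements on genes near 3 counts, which is 0.164 to 0.179 CPM in the 4 libraries.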

Other observations

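Genes called different from DMSO were set directly against PlaB, a test in which the DMSO libraries take no part. Of the 1577 genes called higher than DMSO, 495 were called higher in Dux KD PlaB than in PlaB (31.4%, against 26.1% of all genes), 394 lower (25%, against 28.8%) and 688 not called. Of the 867 called lower than DMSO, 286 were called higher than PlaB (33.0%), 223 lower (25.7%) and 358 not called. These shares lie near those of all genes. Among single-exon genes, the largest rises from DMSO were Gm8130, Klhdc7a, Gm13340, Gm5586 and Rps13-ps4, and the largest falls mt-Th, Gm10330, Hspa1b, Mafa and Fjx1. Gm10330 was not called without Dux KD PlaB replicate 2 (-1.45). Klhdc7a had 20.2 and 17.6 CPM in Dux KD PlaB, 1.25 and 1.10 in DMSO, 12.1 and 11.1 in ESC and 1.06 and 2.36 in PlaB. Mafa, which encodes a basic leucine zipper transcription factor, had 4.13 and 3.65 CPM in Dux KD PlaB, 15.3 and 13.1 in DMSO, 4.73 and 4.60 in ESC and 0.0968 and 0 in PlaB.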
